A study of Mus musculus with 7 samples.

Results

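The cytosolic ribosomal protein genes were examined in islet RNA from 7 pregnant mice, called dams here, on day 15 of pregnancy. Members were the rows of the deposited gene table whose names follow the RPL and RPS pattern, together with RPLP0, RPLP1, RPLP2 and RPSA where listed, without RPS27L, and with a mean of at least 0.5 transcripts per 1000000 (TPM) over the 7 mice. Of 80 matching names among the 34082 in the table, 75 reached this minimum, of which 45 are named for the large subunit and 30 for the small subunit. The subunit was taken from the name alone. RPL7L1 is known as an assembly factor, and the Rps4l row holds a noncoding transcript. They form 75 of the 14840 genes tested. The other 5 names, RPL10L, RPL3L, Rpl39l and rows written RPL32 and RPL36 in capitals, had mean levels of 0.030 to 0.47 TPM. No member lay close to the minimum, and the lowest was RPL23 with a mean of 17.3 TPM.

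The islets came from 4 βPrlR+/- dams and 3 Prlr+/- dams on a C57BL/6 background, with 1 library per mouse. In βPrlR+/- dams CreER, expressed from the Pdx1 promoter and activated by tamoxifen, removes a floxed part of 1 allele of the prolactin receptor gene Prlr in β-cells, and in Prlr+/- dams 1 allele is missing from all tissues. Prlr+/- dams carried no Cre and received no tamoxifen, so the effects of deletion site, recombinase and drug cannot be told apart. For the β-cell deletion the study's methods say heterozygous and the labels homozygous, and the age of 3 to 4 months in the labels is lower than that in the methods. All dams were mated with wild-type males, islets were hand-picked, and no sample described as wild type was analysed here. The titles of the 4 samples taken as βPrlR+/- read CkoWt, which neither the labels nor the paper explains, and their group rests on the label that gives β-cells as the knock-out tissue. The mouse number marks a dam, not a batch, and none of the sources used here names a batch.

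Ribosomal proteins assemble with ribosomal RNA into the small subunit, which reads the message, and the large subunit, which joins amino acids. Their messages are abundant and short, and many begin with a run of pyrimidines, the terminal oligopyrimidine (TOP) motif, through which mTOR and the RNA-binding protein LARP1 control how much of each message is translated. Prolactin and placental lactogen act on the prolactin receptor of β-cells during pregnancy, when β-cells divide and secrete more insulin. RNA levels such as those measured here do not show the translation of a TOP message.

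Windows of 30 bases around annotated starts are shown first, because the pyrimidine run at the first base is the feature for which ribosomal protein messages are known. Starts were taken from the RefSeq promoter table of GRCm38.p6, which held an entry for 56 of the 75 members. The motif searched was C at the first transcribed base followed by at least 4 bases that were each C or T, read on the transcribed strand at that position alone. It was present at an annotated start of 12 of the 56 members, or 21.4%, and of 813 of the 27025 genes in the table, or 3.01%. Each line below holds 15 bases before the start and 15 from the start on, 5′ to 3′, and capitals mark the pyrimidine run. RPL14, RPLP2, RPL35A and RPL15 return in the comparison of groups, RPL38 and RPS21 are among the highest members, and RPS6 and RPS15A are among the lowest.

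RPL14, chr9:120571502-120571531, + strand: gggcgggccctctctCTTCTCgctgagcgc
RPLP2, chr7:141447636-141447665, + strand: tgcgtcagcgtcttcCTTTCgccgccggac
RPL35A, chr16:33056467-33056496, + strand: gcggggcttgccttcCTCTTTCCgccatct
RPL15, chr14:18270972-18271001, - strand: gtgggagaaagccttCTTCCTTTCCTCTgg
RPL38, chr11:114668565-114668594, + strand: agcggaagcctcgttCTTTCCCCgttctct
RPS21, chr2:180257364-180257393, + strand: taccgaggacccgccCTCCTgcccaatagt
RPS6, chr4:86857353-86857382, - strand: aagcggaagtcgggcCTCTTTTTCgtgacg
RPS15A, chr7:118116133-118116162, - strand: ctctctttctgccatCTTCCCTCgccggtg

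The following annotated starts have no such run at the first base. RPL41 and RPL10 are the 2 members with the highest levels, and RPL7L1 is the member whose pattern across mice departed most from the others.

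RPL41, chr10:128549154-128549183, - strand: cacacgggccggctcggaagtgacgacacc
RPL10, chrX:74270801-74270830, + strand: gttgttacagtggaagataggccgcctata
RPL7L1, chr17:46782642-46782671, - strand: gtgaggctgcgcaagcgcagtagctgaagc

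An annotated start can lie some bases away from the start in use, so a missing match says only that the run is not at that base. Members with and without the motif had like values. The median scaled TPM was 492 for the 12 with it and 418 for the 44 without it, and the median log2 fold change between groups was -0.039 and -0.037.

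TPM divides the reads of a transcript by its length and sets the total of each mouse to 1000000, so levels can be compared between genes, but the number of reads behind a value cannot be read from it and no counting interval is given. The insulin genes INS and Ins1 alone took 46.1% to 53.2% of the TPM in βPrlR+/- dams and 54.0% to 58.9% in Prlr+/- dams, without overlap between the groups, and TPM sums to a fixed total. Each dam's TPM was rescaled by its median ratio to the other libraries over all genes, and the result is called scaled TPM. Insulin levels of this size are those of islet tissue. PRLR, the targeted gene, was at 55.7, 38.4, 47.3 and 38.8 scaled TPM in βPrlR+/- dams 1 to 4 and at 36.1, 51.1 and 35.1 in Prlr+/- dams 1 to 3. The groups overlapped, and with no group described as intact this does not check the labels. Summed levels of 12 acinar genes, which come from exocrine tissue attached to the islets, ranged from 3049 to 25972 scaled TPM in βPrlR+/- dams and from 8186 to 21278 in Prlr+/- dams. In whole islets, fewer cells of a type and less RNA per cell cannot be told apart.

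Most members were abundant messages. Their median level was 438 scaled TPM, 68 of them were above 100, a level that 541 of all genes tested reached, and 44 lay between 300 and 700. RPL41, a very short basic peptide of the large subunit, led with 1581, 1461, 1276 and 1432 scaled TPM in βPrlR+/- dams 1 to 4 and 1590, 1275 and 1560 in Prlr+/- dams 1 to 3. RPL10, which completes the maturation of the large subunit, followed at 1215, 1194, 1105 and 1067 in βPrlR+/- dams and 1126, 978 and 1200 in Prlr+/- dams. These levels stand well apart, since the lowest RPL41 value exceeded the highest RPL10 value. RPL38 at a mean of 814, RPS21 at 802 and RPS14 at 760 came next, and their ranges over the mice overlapped.

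**Figure D1:**
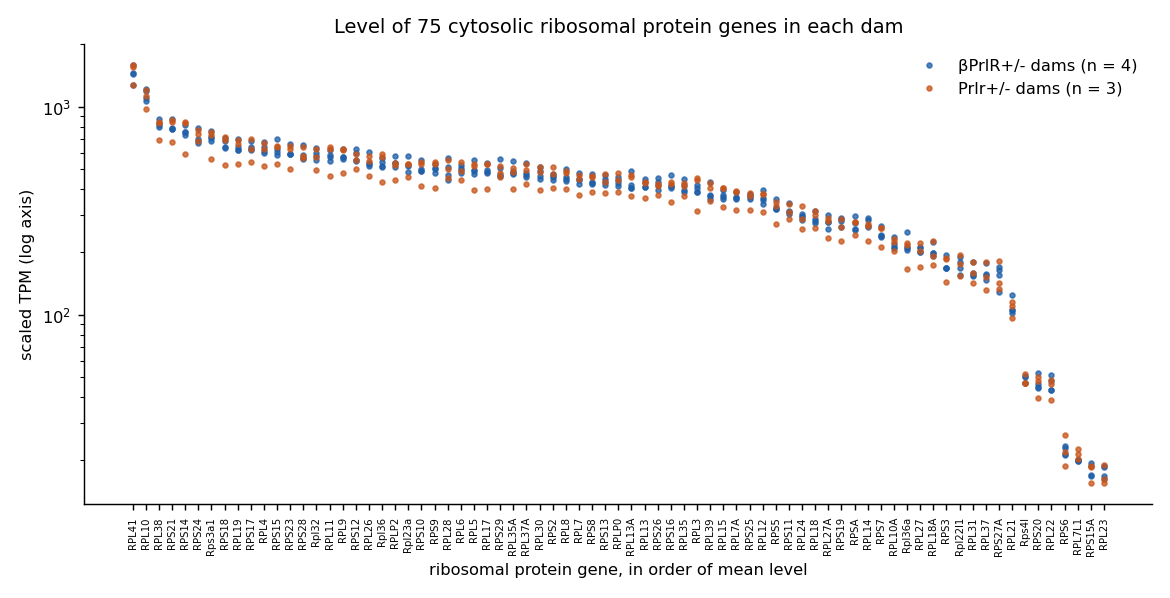
Scaled TPM (log axis) of the 75 members in order of mean level, with 1 point per mouse, blue for the 4 βPrlR+/- dams and orange for the 3 Prlr+/- dams. Levels run from 1454 for RPL41 down to 17.2 for RPL23, and the lowest point of most members is a Prlr+/- dam.

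Some members have further rows in the gene table under the names of their pseudogenes or retrogenes. The lowest 5 members were RPL23 at a mean of 17.2 scaled TPM, RPS15A at 17.7, RPL7L1 at 20.5, RPS6 at 22.2 and RPL22 at 45.6. Kallisto can divide reads among rows of like sequence, and how many reads such rows share was not measured here. For RPS15A, Rps15a-ps5 held 85.4 scaled TPM, Rps15a-ps6 19.5 and Rps15a-ps4 9.39. Rpl31-ps12 held 168 beside 161 for RPL31, and Rpl14-ps1 held 40.6 beside 268 for RPL14. The retrogene row Rpl37rt held 42.7 beside 157 for RPL37. The level of members with such rows, among them RPS15A, RPL31, RPL14 and RPL37, is therefore uncertain. The row RPS4Y1, at 565, holds transcripts that RefSeq assigns to Rps4x, and it fell outside the naming rule together with merged rows for Rplp1, Rps27, Rpl34 and Rpl29. Of these the Rps27 row had a mean of 1363 and the Rplp1 row of 1038, levels as high as those of the top members.

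No member differed between the groups at an adjusted p under 0.05 on scaled TPM. In limma across all 14840 genes 10 were called, or 0.0674%, and 0 of the 75 members were among them. At an unadjusted p under 0.05 limma found 671 of all genes, or 4.52%, and again 0 members. The log2 fold change, Prlr+/- minus βPrlR+/-, was below 0 for 62 members and above 0 for 13, from -0.13 to 0.10, with a median of -0.035 beside 0.0042 for all genes tested. The standard error of a member was 0.055 to 0.14, with a median of 0.10, so nearly all these differences were smaller than their error.

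Among members lower in Prlr+/- dams, the smallest p belonged to RPL14, a large-subunit protein. It was at 285, 268, 292 and 265 scaled TPM in βPrlR+/- dams 1 to 4 and at 268, 227 and 271 in Prlr+/- dams 1 to 3. Prlr+/- dam 2 was the lowest and the groups overlapped, with a log2 fold change of -0.12 ± 0.086 (SE, limma adjusted p = 0.9999). With its pseudogene row joined to it, RPL14 was at -0.096 ± 0.092 (SE). RPS19, a small-subunit protein whose loss causes Diamond-Blackfan anaemia, was at 293, 263, 290 and 282 in βPrlR+/- dams and at 264, 227 and 287 in Prlr+/- dams. Here too only Prlr+/- dam 2 fell below every βPrlR+/- dam, and the log2 fold change was -0.13 ± 0.094 (SE). RPLP2, a protein of the ribosomal stalk, followed at -0.11 ± 0.093 (SE), then Rpl36a at -0.12 ± 0.12 and RPL35A at -0.10 ± 0.11. All 5 had overlapping groups and a limma adjusted p of 0.9999. Without Prlr+/- dam 2 the log2 fold change was -0.039 for RPL14, -0.033 for RPS19 and -0.029 for RPLP2. It was then 0.0052 for Rpl36a and -0.0012 for RPL35A.

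RPL7L1 was the only member whose groups did not overlap, where 735 of all 14840 genes, or 4.95%, did not. RPL7L1 is a paralog of RPL7 and is known as a factor of large-subunit assembly. It was at 19.97, 19.80, 19.70 and 19.86 scaled TPM in βPrlR+/- dams 1 to 4 and at 21.21, 22.64 and 20.26 in Prlr+/- dams 1 to 3. The means were 19.8 ± 0.11 (SD, n = 4) and 21.4 ± 1.20 (SD, n = 3), and the lowest Prlr+/- dam was only just above the highest βPrlR+/- dam. The log2 fold change was 0.10 ± 0.055 (SE), with a limma adjusted p of 0.9999, and the two-sided exact permutation test gave p = 0.0286, the smallest that 4 against 3 mice allow. A share of 1 in 75 members without overlap is below that of all genes. The next smallest p among members higher in Prlr+/- dams belonged to RPS24, RPL39, RPL41 and RPL15, at log2 fold changes of 0.041, 0.040, 0.034 and 0.019, each smaller than its standard error of 0.094 to 0.13.

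The deposited TPM gave a different picture from the scaled TPM. All 75 members were lower in Prlr+/- dams on the values as deposited, with a median log2 fold change of -0.18 beside -0.12 over all genes tested. Of the 75, 50, or 66.7%, had their 3 Prlr+/- values under their 4 βPrlR+/- values, against 8.42% of all genes. With limma, 40 members, or 53.3%, were lower at an unadjusted p under 0.05, against 7.56% of all genes, but 0 passed adjustment and the smallest adjusted p was 0.554. Insulin moved the other way: its share of TPM averaged 51.3% ± 3.45 (SD, n = 4) in βPrlR+/- dams and 56.5% ± 2.47 (SD, n = 3) in Prlr+/- dams. The members' share was taken with and without insulin in the total. The members took 3.34% ± 0.099 (SD, n = 4) of all TPM in βPrlR+/- dams and 2.94% ± 0.22 (SD, n = 3) in Prlr+/- dams, without overlap, but 6.86% ± 0.31 and 6.79% ± 0.79 of the TPM outside insulin, with overlap. On scaled TPM, lists that mark cell types went both ways between the groups. Above 0 were 9 of 10 β-cell, 10 of 12 acinar, 2 of 3 duct and 5 of 6 macrophage and leukocyte genes. Below 0 were 6 of 6 α-cell, 3 of 3 delta- and PP-cell, 5 of 5 endothelial and 6 of 7 fibroblast and pericyte genes. The median log2 fold change was 0.30 in β-cell, -0.27 in α-cell and -0.24 in endothelial genes, and 0 were called. What set the shift of the members was not tested. The number of members below 0 also depended on the scaling. Scaled by the upper quartile, 71 were below 0, with a median of -0.061. Scaled by the members' own median ratio, which sets their common level equal by construction, 36 were below 0 with a median of 0.0052.

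**Figure D2:**
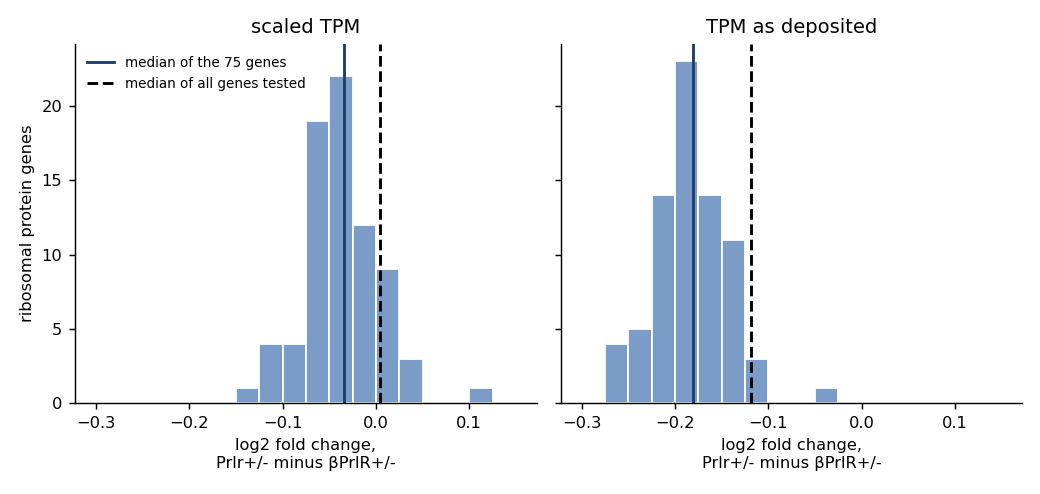
Number of members by log2 fold change, Prlr+/- minus βPrlR+/-, on scaled TPM (left) and on TPM as deposited (right). The solid line is the median of the 75 members, -0.035 and -0.18, and the dashed line the median of all genes tested, 0.0042 and -0.12, so both medians lie lower on the deposited values.

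On scaled TPM the direction rested on single mice. In Prlr+/- dam 2, 74 of 75 members were below their own mean over the 7 mice, and for 69 of them this mouse was the lowest of all. The median deviation of the members from their own means was 0.13, -0.012, -0.0072 and -0.043 on the log2 scale in βPrlR+/- dams 1 to 4 and 0.044, -0.22 and 0.10 in Prlr+/- dams 1 to 3. The Prlr+/- group thus held both the lowest mouse and the second highest, and the βPrlR+/- dams lay between them except for mouse 1, the highest, where 72 members were above their own mean. Without Prlr+/- dam 2 only 7 members were below 0 and the median log2 fold change became 0.053, while without Prlr+/- dam 3 it was -0.10 with 69 below 0. Without βPrlR+/- dam 1 it was -0.0011, with 38 below 0.

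**Figure D3:**
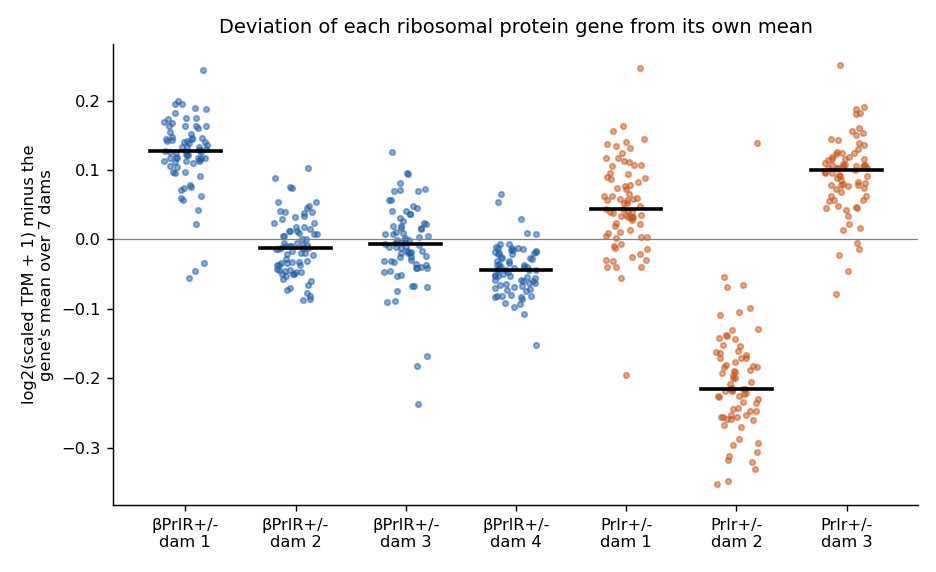
Deviation of each of the 75 members from its own mean, on the log2(scaled TPM + 1) scale, in each mouse, with a black line at the mouse's median. The points of a mouse sit together, at -0.22 in Prlr+/- dam 2 and 0.13 in βPrlR+/- dam 1, so the difference between mice within a group is larger than that between groups.

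The members moved between mice as a block. The standard deviation of a member over the 7 mice had a median of 0.12 on the log2 scale, and 0.046 once the mouse's median over the members was taken off. Over all 2775 pairs of members the median Pearson correlation over the 7 mice was 0.863 and the median Spearman correlation 0.786, with 96.1% of pairs above 0. Every pair shares the same 7 libraries and the same scaling, so these correlations describe these mice and carry no test. The median was 0.884 after each group's mean was taken off, 0.844 in the 4 βPrlR+/- dams alone, and 0.675 without Prlr+/- dam 2 and βPrlR+/- dam 1, the mice farthest from the median. Large-subunit and small-subunit members went together, with a median correlation of 0.863 across the subunits and median deviations in Prlr+/- dam 2 of -0.22 and -0.21. Once scaled to the members themselves, which takes off their common level by construction, the median correlation was -0.024.

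Most members followed the others closely. Of the 75, 55 had a correlation above 0.9 with the median of the other members, and RPL5, which carries 5S ribosomal RNA into the large subunit, reached 0.993. The steadiest after the mouse's median was taken off were RPL26, RPL8 and RPL7, all of the large subunit, with a standard deviation of 0.017 to 0.018. RPL26 was at 603, 534, 531 and 520 scaled TPM in βPrlR+/- dams 1 to 4 and at 551, 464 and 579 in Prlr+/- dams 1 to 3. As in the whole block, βPrlR+/- dam 1 was the highest and Prlr+/- dam 2 the lowest. In total 46 members had such a standard deviation under 0.05.

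Only 3 members had a correlation under 0.5 with the rest: RPL7L1, Rps4l and RPS27A. RPL7L1 ran against the block at -0.648, with its highest value in Prlr+/- dam 2, where it stood 0.35 above the members' median on the log2 scale. Rps4l, a copy of the Rps4 gene whose row holds a noncoding transcript, did not follow it either, at 0.021. It was at 46.6, 49.9, 46.9 and 50.8 scaled TPM in βPrlR+/- dams and at 51.8, 46.6 and 46.9 in Prlr+/- dams. Rps4l was at 0.084 ± 0.0070 (SD, n = 4) of the RPS4Y1 row in βPrlR+/- dams and 0.089 ± 0.0099 (SD, n = 3) in Prlr+/- dams, and the groups overlapped.

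RPS27A encodes ubiquitin fused to a small-subunit protein, and it varied most among the members above 100 scaled TPM. It was at 168, 163, 129 and 155 in βPrlR+/- dams 1 to 4 and at 133, 142 and 181 in Prlr+/- dams 1 to 3. Its low values were in 1 mouse of each group, βPrlR+/- dam 3 and Prlr+/- dam 1, where it stood 0.23 and 0.24 below the members' median on the log2 scale.

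RPS6 and RPL23 also left the common level, at low rows of the table. RPS6, the small-subunit protein that S6 kinase phosphorylates downstream of mTOR, was at 21.4, 22.7, 23.3 and 21.2 scaled TPM in βPrlR+/- dams and at 26.4, 18.8 and 21.8 in Prlr+/- dams. Prlr+/- dam 1 was the highest and Prlr+/- dam 2 the lowest, so the Prlr+/- dams spanned all the βPrlR+/- values. RPL23, a large-subunit protein, was at 18.7, 16.7, 18.4 and 16.1 in βPrlR+/- dams and at 18.8, 15.5 and 16.2 in Prlr+/- dams, also overlapping. The standard deviations of RPS6 and RPL23 after the mouse's median was taken off were 0.13 and 0.097, beside 0.17 for RPL7L1, 0.17 for RPS27A and 0.13 for Rps4l.

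**Figure D4:**
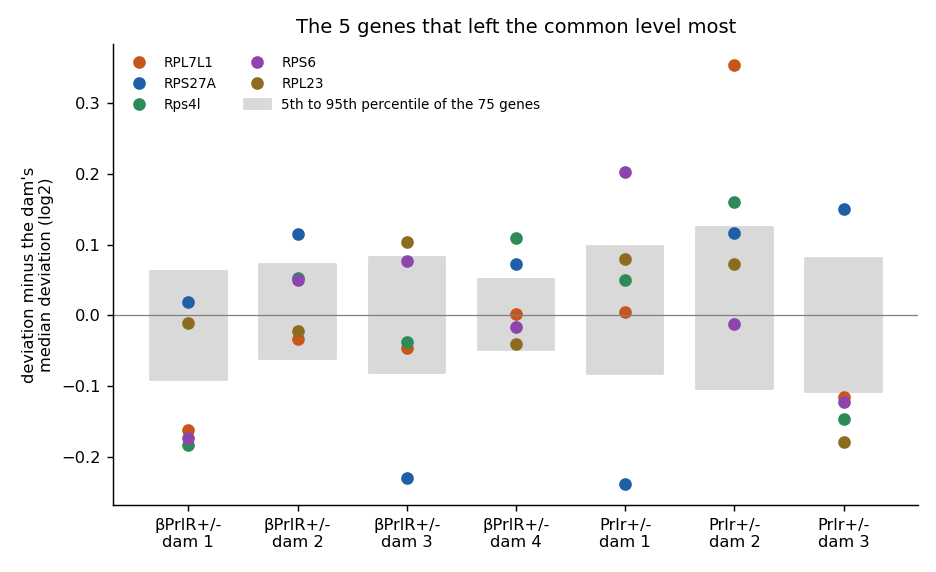
Deviation of RPL7L1, RPS27A, Rps4l, RPS6 and RPL23 in each mouse after the mouse's median over the members was taken off (log2 units), with a grey band from the 5th to the 95th percentile of the 75 members. RPL7L1 stands at 0.35 in Prlr+/- dam 2, and RPS27A is low in βPrlR+/- dam 3 and Prlr+/- dam 1.

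The stalk proteins bring elongation factors to the large subunit. RPLP0, its base, was at 460, 414, 442 and 431 scaled TPM in βPrlR+/- dams 1 to 4 and at 444, 390 and 482 in Prlr+/- dams 1 to 3. RPLP2 was at 577, 534, 535 and 512 in βPrlR+/- dams and at 523, 446 and 534 in Prlr+/- dams. As a ratio to RPLP0, which needs no scaling between mice, RPLP2 was at 1.24 ± 0.046 (SD, n = 4) in βPrlR+/- dams and 1.14 ± 0.036 (SD, n = 3) in Prlr+/- dams. The values were 1.25, 1.29, 1.21 and 1.19 against 1.18, 1.14 and 1.11, so this ratio was lower in the 3 Prlr+/- dams without overlap. It was picked out after the values had been seen and was not tested. The Rplp1 row over RPLP0 was at 2.36 ± 0.11 (SD, n = 4) and 2.39 ± 0.090 (SD, n = 3), with overlapping groups.

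RPSA, a small-subunit protein also known as the laminin receptor, was at 299, 259, 277 and 255 scaled TPM in βPrlR+/- dams and at 279, 242 and 278 in Prlr+/- dams. Its correlation with the median of the other members was 0.908, and its groups overlapped. Several members have paralogs in the table. Rpl22l1, the paralog of RPL22, was the more abundant of the pair in these islets, at 3.72 ± 0.28 (SD, n = 4) times RPL22 in βPrlR+/- dams and 3.91 ± 0.30 (SD, n = 3) times in Prlr+/- dams. RPL7L1 was at 0.044 ± 0.0020 of RPL7 in βPrlR+/- dams and 0.050 ± 0.0087 in Prlr+/- dams, where mouse 2 alone reached 0.060. RPL3L and Rpl39l, the muscle and testis paralogs of RPL3 and RPL39, were under the minimum at 0.16 and 0.064 TPM, beside 402 scaled TPM for RPL3 and 391 for RPL39.

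Members known for roles outside the ribosome kept to the block, apart from RPS27A and RPS6. RPL5 and RPL11 bind MDM2 and so tie ribosome assembly to p53. RPL5 was at 557, 492, 497 and 477 scaled TPM in βPrlR+/- dams and at 521, 398 and 531 in Prlr+/- dams. RPL11 was at 621, 587, 548 and 574 in βPrlR+/- dams and at 624, 467 and 639 in Prlr+/- dams. In both, Prlr+/- dam 2 was the lowest and the other 2 Prlr+/- dams lay within or above the βPrlR+/- range. RPL13A, which also acts in translational silencing of inflammatory messages, had means of 431 ± 41.6 (SD, n = 4) and 433 ± 55.0 (SD, n = 3). RPS3, a small-subunit protein with a role in DNA repair, had means of 175 ± 13.2 and 172 ± 24.1.

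Of the 75 members 46 had 1 transcript in the reference, and in 23 of the other 29 the highest transcript held over 95% of the TPM. The share of the highest transcript varied by under 3 percentage points over the dams in 26 of the 29, and by more in RPL10A, RPL22 and RPL3. In 1 of the 29, RPL13, this share did not overlap between the groups. It was 99.84% to 99.85% in βPrlR+/- dams and 99.73% to 99.80% in Prlr+/- dams, a range of 0.11 percentage points in all. RPS28, a small-subunit protein, was divided most evenly, with a predicted transcript at 56.6% to 58.9% over the mice. RPS24, whose last exons are alternatively spliced, had the most transcripts, 9, and the highest of them held 87.9% to 90.6%. The minor transcript of RPL10A held 4.66%, 5.48%, 6.71% and 7.23% in βPrlR+/- dams 1 to 4 and 4.01%, 10.5% and 3.41% in Prlr+/- dams 1 to 3. The highest share was again in Prlr+/- dam 2, and the groups overlapped. A minor transcript of RPL22 held 2.75%, 5.52%, 1.29% and 4.47% in βPrlR+/- dams and 2.03%, 0.30% and 8.18% in Prlr+/- dams. Its lowest and highest shares were both in Prlr+/- dams.

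Other genes of the pathway were described from lists. Translation factors and other genes generally known as TOP genes formed 1 list, and their own starts are not given here. In this list 18 of 20 were below 0 and 0 were called. The median log2 fold change was -0.033, like that of the members. EEF1A1, the elongation factor that brings transfer RNA to the ribosome, was at 2491, 2308, 2183 and 2151 scaled TPM in βPrlR+/- dams and at 2301, 1955 and 2462 in Prlr+/- dams. The list's median deviation was -0.22 in Prlr+/- dam 2 and 0.12 in Prlr+/- dam 3, as in the members. Respiratory chain genes, whose messages are also short, had a median deviation of -0.11 in Prlr+/- dam 2 and 0.097 in Prlr+/- dam 3, and 23 of 71 were below 0. Mitochondrial ribosomal proteins did not share the low value, with a median deviation of -0.0045 in Prlr+/- dam 2 and 16 of 77 below 0. The median correlation between pairs was 0.575 in the TOP list, 0.713 in the respiratory chain and 0.340 in the mitochondrial ribosome, beside 0.863 in the members. Of 9 lists that mark a cell type or state, acinar genes at 0.989 and proliferation genes at 0.9499 were above the members, macrophage and leukocyte genes at 0.862 were close to them, and the other 6 were lower, from 0.157 in duct genes to 0.746 in fibroblast and pericyte genes. Without Prlr+/- dam 2 the members stood at 0.732 and the respiratory chain at 0.701. A high correlation between pairs is therefore not particular to the members.

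Most genes of ribosome biogenesis, which make ribosomal RNA or assemble the subunits, were highest in Prlr+/- dam 2, where most ribosomal protein messages were lowest. This held for 21 of 35 such genes, while 1, the nucleolar protein NCL, was lowest there. Over the 35 genes the median deviation was 0.00075, -0.045, -0.011 and -0.024 in βPrlR+/- dams 1 to 4 and -0.0065, 0.16 and -0.070 in Prlr+/- dams 1 to 3. GNL3, a nucleolar GTPase known as nucleostemin, was at 15.3, 16.4, 16.7 and 15.0 scaled TPM in βPrlR+/- dams and at 15.4, 22.3 and 14.3 in Prlr+/- dams. NOP56, a core protein of the particles that methylate ribosomal RNA, was at 27.1 in Prlr+/- dam 2 and between 19.0 and 21.7 in the other 6 mice. NCL went the other way, at 38.2 in Prlr+/- dam 2 and between 44.7 and 49.7 in the others. RPL7L1 was also highest in this dam. In the comparison of groups 7 of the 35 were below 0 and 28 above, and 0 were called. Of 14 genes of growth signalling to translation, among them MTOR and LARP1, 4 were below 0 and 10 above, 0 were called, and the median deviation in Prlr+/- dam 2 was 0.056. Extremes in this dam were not limited to ribosome genes. In other lists 15 of 20 TOP and 31 of 71 respiratory chain genes were lowest there. Of 77 mitochondrial ribosome genes 13 were highest and 10 lowest, and 4 of 5 proliferation genes were highest. The share of all genes with their extreme in this dam is not given here.

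**Figure D5:**
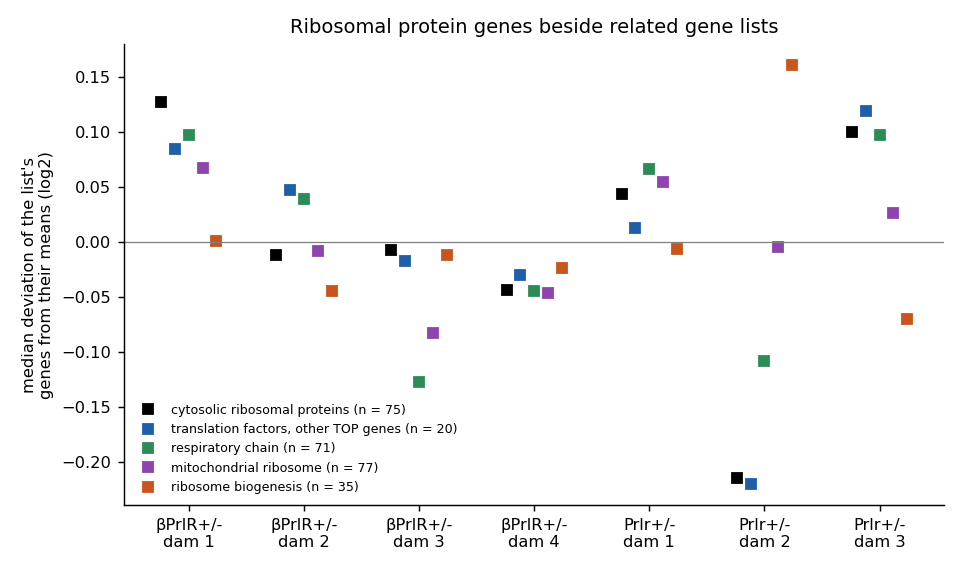
Median deviation of each gene list from its genes' own means (log2 units) in each mouse. In Prlr+/- dam 2 the members and the TOP list lie at -0.22, the mitochondrial ribosome at -0.0045 and ribosome biogenesis at 0.16.

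Other values that stood apart in Prlr+/- dam 2 are given beside this. The 10 β-cell markers had a median deviation of 0.39 there and between -0.30 and 0.12 in the other mice, but only 4 of the 10 were highest there. Their summed level, mostly insulin, ranged from 451635 to 599286 scaled TPM in βPrlR+/- dams and from 582574 to 715449 in Prlr+/- dams, and Prlr+/- dam 2 was the lowest of the 3 Prlr+/- dams. The 5 proliferation genes had a median deviation of 0.46 there, with MKI67, a marker of dividing cells, at 1.46 scaled TPM against 0.15 to 0.98 in the other mice. Their summed level ranged from 28.8 to 33.1 in βPrlR+/- dams and from 32.8 to 36.0 in Prlr+/- dams, most of it PCNA, and none was listed at 0 in all mice. Acinar genes were high in other dams too, with a median deviation of 0.77 there and of 1.10 in both βPrlR+/- dams 1 and 3. The part of these values in the low members of this dam was not tested.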

How the data were processed

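Islet RNA of 7 mice was poly(A)-selected and sequenced by the authors, who assigned reads to mouse RefSeq transcripts with Kallisto (version 0.42.4 per the submitters' notes). The genome build is not given in the sources used here. The deposited values are called FPKM in the methods, but they sum to 1000000 per mouse and were handled as TPM, from which the reads behind a value cannot be recovered, with 0 per-sample columns unused. TPM was divided by median-ratio size factors over all genes. Limma 3.58.1 (R 4.3.3) was run on log2 of scaled TPM plus 1 for genes with a mean of at least 0.5 TPM, with mean-dependent variance and Benjamini-Hochberg adjustment over all 14840 genes at 0.05. The fit was tested on simulated data with independent genes and with added differences larger than those of the members. That test does not cover differences of the members' size or genes that move together. Fold changes on this scale understate low genes. Single members were also compared by the two-sided exact permutation test over 35 assignments. P-values measure the spread between single libraries of separate dams.

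Members and lists were chosen with earlier results of these data known. Named members were those of highest and lowest level (5 each), smallest p (5 per direction), largest (5) and smallest (3) standard deviation relative to the members, paralogs, stalk proteins, RPSA and members known outside the ribosome. Merged, renamed and pseudogene rows, RPL10A, RPL13, RPS28, RPL31, RPL37 and the genes named from the lists were named after their values were seen. RefSeq symbols of GRCm38.p6 were matched for 75 of 75 members, 72 of them by transcript. Alternatives were TPM as deposited, upper-quartile scaling, scaling to the members, a pseudocount of 0.1, all genes above 0, each member's highest transcript, leaving out each mouse, and, added later, pseudogene rows joined to their member. Python 3.11.15, pandas 2.3.3, numpy 2.4.6 and matplotlib 3.10.9 were used. A gene withheld from this text is not reported here.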

Additional observations from a re-analysis of the deposited data

Results flagged for a closer look

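In the 4 βPrlR+/- dams, 1 mouse stood far from the other 3 in 4 of 35 values checked, where chance gives about 1 in 20 for a single value. Of the 35, 31 were levels of named members, which moved between mice as a block. The checks are therefore not independent, and their count cannot be set against that rate. βPrlR+/- dam 1 was the high one for RPS21 at 874 scaled TPM, for RPS3 at 194 and for Rpl36a at 248, and it was also the mouse with the highest median over the members. βPrlR+/- dam 3 was the low one for the insulin share of TPM, at 46.1%.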

How the results depend on the processing

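The count of 0 called members held in all 14 alternatives, and the lowest adjusted p of the 10 members given with fold changes was 0.554. The median log2 fold change of the members moved to -0.18 on TPM as deposited, and stayed within 1 SD of the spread between mice elsewhere, though its sign changed when scaled to the members and without Prlr+/- dam 2. It ranged from -0.10 to 0.053 when mice were left out. On TPM as deposited RPL15 was at -0.13, RPL39 at -0.11, RPL41 at -0.11, RPL7L1 at -0.038 and RPS24 at -0.11, all below 0 where scaled TPM put them above. Upper-quartile scaling put RPL15 at -0.0075. With pseudogene rows joined to their member, RPL14 was at -0.096 ± 0.092 (SE) and RPS19 at -0.13 ± 0.094 (SE). Leaving out mice gave a range of -0.032 to 0.12 for RPL15, -0.018 to 0.12 for RPL39, -0.023 to 0.14 for RPL41 and -0.20 to 0.0052 for Rpl36a. For RPL14 it was -0.17 to -0.039, for RPS19 -0.20 to -0.033, for RPLP2 -0.16 to -0.029 and for RPL35A -0.17 to -0.0012. For RPS24 it was 0.00091 to 0.093 and for RPL7L1 0.061 to 0.14. The median correlation between members was -0.024 when scaled to the members, which removes their common level by construction, and 0.732 to 0.897 when mice were left out, lowest without Prlr+/- dam 2.

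Genes called among all tested numbered 5 when scaled to the members, 18 with a pseudocount of 0.1, 4 with all genes above 0 (27935 tested), and 2 to 12 when mice were left out, lowest without βPrlR+/- dam 4; the cause was not tested. No paired analysis was possible because the labels give no number shared between groups. With 3 mice in 1 group, differences of the size of the members' standard errors, 0.055 to 0.14 on the log2 scale, could not be resolved. Differences of several standard errors could also go uncalled. On TPM as deposited RPLP2, at -0.26 ± 0.075 (SE), had a limma adjusted p of 0.554.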

Other observations

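Of 8 ribosomal protein or ribosome-associated rows outside the naming rule, 6 were lowest in Prlr+/- dam 2, and the other 2, the Rplp1 row and RPL36AL, were lowest in βPrlR+/- dam 2 and βPrlR+/- dam 3. The Rps27 row was at 1473, 1408, 1303 and 1304 scaled TPM in βPrlR+/- dams 1 to 4 and at 1408, 1132 and 1514 in Prlr+/- dams 1 to 3. FAU, a ubiquitin-like protein fused to a small-subunit protein, was at 304 in Prlr+/- dam 2 and between 361 and 422 in the other 6 mice. RACK1, a signalling scaffold bound to the small subunit, was at 243 in Prlr+/- dam 2 and between 274 and 309 in the others. FAU, RPL36AL and the merged and renamed rows were then counted with the members. Together these ribosomal protein messages took 7.79% ± 0.35 (SD, n = 4) of the TPM outside insulin in βPrlR+/- dams. In Prlr+/- dams they took 7.72% ± 0.89 (SD, n = 3), and the groups overlapped.

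Among all genes other than the members and the related rows given here, 77, or 0.522%, had a correlation above 0.9 with the members' median over the 7 mice. This is a description over 7 libraries and carries no test.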
